A study of Homo sapiens with 82 samples.

Results

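LXRB binding in HT29 cells was compared between 2 h and 48 h of treatment with the liver X receptor agonist GW3965. The members are the peaks of the 4 ChIP-seq libraries made with an antibody to LXRB at these times, 2 replicates each, chosen by their labels alone. They hold 38026 of the 813345 peaks in the 34 libraries with a peak file, among 82 samples in the series. HT29 is an established line of colorectal cancer cells, and GW3965 was given at 10 μM for 2 h or for 48 h. No LXRB library of cells without GW3965 was analysed here, so the values compare 2 times of treatment and not treated with untreated cells. The partners were JunD in DMSO-treated cells, and RNA polymerase II (RNAP2) and acetylated lysine 27 of histone H3 (H3K27ac) in DMSO-treated cells and after 24 or 48 h of 10 μM GW3965 or 10 μM rosiglitazone, with 2 replicates of each. No hour is stated for the libraries of DMSO-treated cells. FLAG-tagged LXRA, from a plasmid in cells selected for it, after 2 and 48 h of GW3965 and PPARG after 2 and 48 h of rosiglitazone served for comparison, and the RNA of the assayed proteins was measured in 4 libraries each of DMSO and of GW3965 at 24 and 48 h. In the tests of RNA these were fitted together with 4 libraries each of 10 μM T0901317 and 10 μM rosiglitazone per time. T0901317 is another liver X receptor agonist.

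LXRB, encoded by NR1H2, is a nuclear receptor for oxidised cholesterol derivatives that binds DNA together with a retinoid X receptor. It can sit on its sites without ligand, and agonists turn bound receptors toward activation of genes for cholesterol export and fatty acid synthesis. JunD is a subunit of AP1, a dimer of Jun and Fos proteins that occupies enhancers. H3K27ac marks active enhancers and promoters, and RNAP2 marks transcribed promoters, gene bodies and active distal elements.

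The cells carried the transcripts of colon epithelium. All 8 of EPCAM, CDX1, CDX2, VIL1, KRT20, LGALS4, CEACAM5 and CDH17 passed the filter on low counts. Of 4 transcripts of other cell types, PTPRC, ALB and SFTPC did not pass it, whereas COL1A1 had a mean of 4.39 CPM (counts scaled to library size) with DMSO at 24 h. Both LXRB replicates of a time were called against 1 shared input, and the 2 times had different inputs and separately numbered libraries, so time and library preparation cannot be told apart. Read depth is unknown for the peak libraries, and it bears on every number of peaks.

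More LXRB binding events were listed at 48 h than at 2 h. The 2 h replicates held 7583 and 4555 peaks, and the 48 h replicates held 11100 and 14788. Both 48 h libraries lay above both 2 h libraries, and the mean was 12944 against 6069 peaks, a ratio of 2.13. The difference of 6875 peaks had an exact permutation p of 0.333 (two-sided), which is the smallest value that 2 against 2 libraries can give. A peak of one replicate was found in the other for 51.7% and 85.6% of the peaks at 2 h, and for 84.1% and 62.9% at 48 h. In each pair it was the library with fewer peaks whose peaks were mostly found again.

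**Figure D1:**
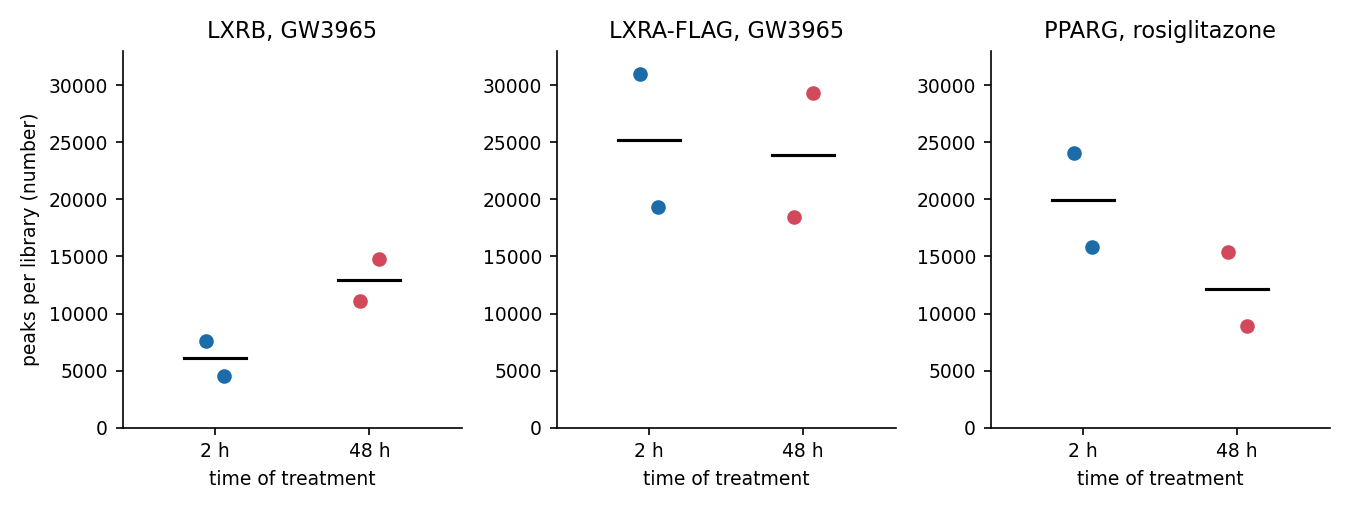
Number of peaks per library (y axis, the same for each panel) for LXRB with GW3965, FLAG-tagged LXRA with GW3965 and PPARG with rosiglitazone after 2 and 48 h (x axis). Points are libraries and lines are means of 2; LXRB had 4555 and 7583 peaks at 2 h and 11100 and 14788 at 48 h, while both PPARG libraries at 48 h lay below both at 2 h.

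Peaks at 48 h were slightly narrower and scored slightly higher. The score was read as minus 10 times the log10 of the peak caller's p, so it reflects depth as well as occupancy. Median widths were 939 and 990 bp at 2 h against 878 and 898 bp at 48 h, a difference of -76.5 bp between the means (exact permutation p = 0.333). Median scores were 164 and 162 at 2 h and 171 and 171 at 48 h, with a difference of 8.21 (exact permutation p = 0.333). When each library was limited to its 4555 highest-scoring peaks, median widths became 1027 and 990 bp at 2 h and 1045 and 1143 bp at 48 h, and the difference in width turned to 85.5 bp. Median scores then were 230 and 162 at 2 h against 319 and 372 at 48 h.

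Sites found in both replicates of a time, hereafter LXRB sites, numbered 3881 at 2 h and 9218 at 48 h. Of the 2 h sites, 3373 were found again at 48 h, which is 86.9% (Wilson 95% interval 85.8 to 87.9). Of the 48 h sites, 3391 overlapped a 2 h site and are called persistent, and 5827 did not and are called late. The remaining 508 sites of 2 h had no 48 h site and are called early. These counts rest on single libraries: there were 11159 late and 315 early sites without replicate 1 of 48 h, and early sites numbered 804 without replicate 1 and 2521 without replicate 2 of 2 h. Intervals here and below cover counting error only, since sites are not replicates.

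Late did not always mean unbound at 2 h. No peak lay there in either 2 h library for 3844 of the late sites (66.0%), and 1981 (34.0%) had a peak in 1 of the 2 libraries, which was replicate 1 in 1630 of them. Likewise, 226 early sites (44.5%) had no peak in either 48 h library. Late sites were narrower and weaker than persistent ones, with a median width of 952 against 1146 bp and a median lower score of 144 against 309. Early sites had a median width of 932 bp and a median lower score of 123. Among 48 h sites with a lower score of 100 to 150, 87.9% were late, and among those of 600 or more, 2.40% were.

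**Figure D2:**
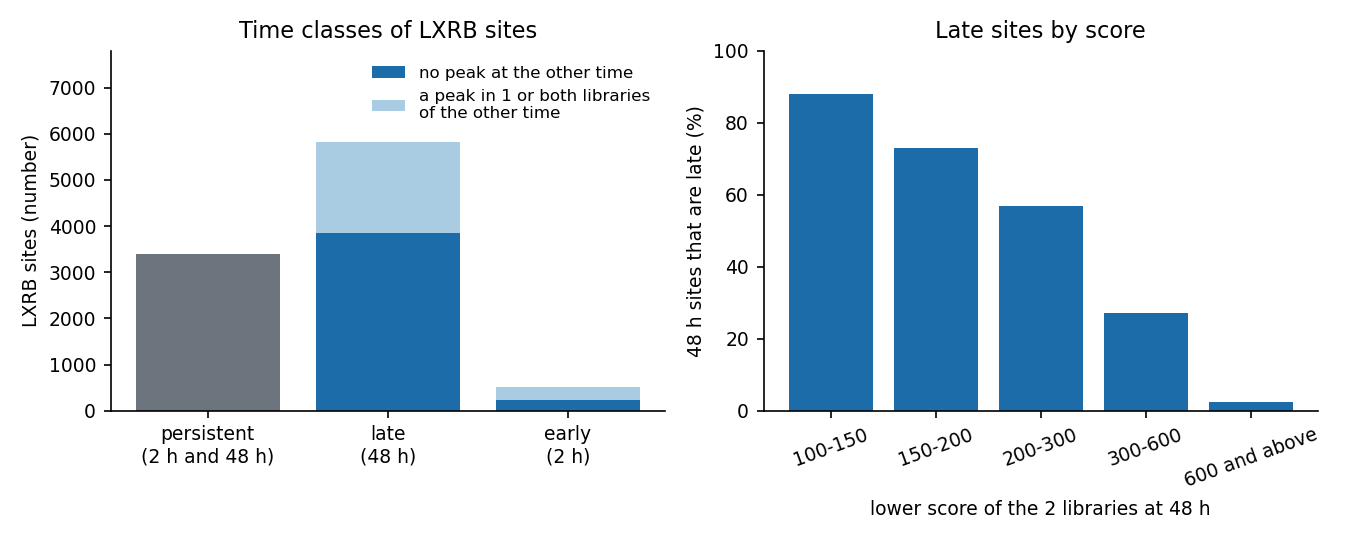
Left, number of LXRB sites (y axis) that were persistent, late or early, with late and early sites split by whether a library of the other time held a peak there. Right, percentage of 48 h sites that were late (y axis) by the lower score of the 2 libraries at 48 h (x axis); it runs from 87.9% at scores of 100 to 150 down to 2.40% at 600 and above.

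The strongest persistent binding events reached the upper end of the score scale. The lowest of the 4 scores was at least 3100 at 25 sites, where scores tie, so of these the first 4 by position are named, on the hg19 build. They were chr1:27816236-27817508, chr1:154908669-154910694, chr3:169939370-169940598 and chr5:137672800-137674415, each with a score of 3100 in every library. Each of these overlapped RNAP2 and H3K27ac in DMSO-treated cells and after 48 h of GW3965, and the first of them alone also overlapped JunD. None of the 4 overlapped a PPARG site of 2 h.

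The highest-scoring late site, chr19:38797509-38803840, spanned 6332 bp and scored 1689 and 3100 at 48 h. It held separate peaks in both 2 h libraries, with scores of 171 and 400, that did not overlap each other, so it is late only by the definition. At chr21:46493421-46495460 the 48 h scores were 952 and 999.6, and 1 library at 2 h had a peak with a score of 232. The site chr20:361236-364810 had no peak at 2 h and scores of 898 and 1513 at 48 h. These 3 sites overlapped JunD and also RNAP2 in DMSO-treated cells.

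Of the late sites without JunD, chr1:156186019-156186756 scored highest, with 892 and 1310 at 48 h and a single peak of 344 at 2 h. It overlapped no RNAP2 or H3K27ac site of DMSO or 48 h GW3965, no LXRA site and no PPARG site of 2 h. Next were chr11:76480416-76482638, with 610 and 847 at 48 h and a peak of 120 in 1 library at 2 h, and chr1:10960024-10962147, with 592 and 622 at 48 h and a peak of 174 in 1 library at 2 h. Both of these overlapped RNAP2 and H3K27ac sites of DMSO and 48 h GW3965, LXRA sites of both times and PPARG sites of 2 h.

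Early sites were weak by comparison. The highest-scoring one, chr11:70314315-70315234, scored 331 and 400 at 2 h and 195 in 1 library at 48 h. At chr2:42086538-42088211 and chr6:94677576-94678537 a single 48 h library likewise kept a peak, with scores of 164 and 167. Only the fourth, chr1:113136619-113137488, with 289 and 305 at 2 h, had no peak in either library at 48 h. The first and the fourth overlapped no JunD site, no RNAP2 or H3K27ac site of DMSO or 48 h GW3965, no LXRA site and no PPARG site of 2 h. The other two overlapped RNAP2 sites of DMSO and 48 h GW3965, LXRA sites of both times and PPARG sites of 2 h.

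LXRB scores at sites held by all 4 libraries were mostly higher at 48 h. There were 3358 such sites, with median scores of 260 and 191 in the 2 h libraries and 339 and 367 in the 48 h libraries. Both 48 h scores exceeded both 2 h scores at 1901 sites (56.6%), and both lay below them at 321 sites (9.56%). With each score replaced by its percentile rank among all peaks of its library, the counts were 1837 sites (54.7%) and 278 sites (8.28%), but the longer 48 h lists of mostly weak peaks raise these ranks by themselves. Ranked among the 3358 sites alone, which takes out list length and also any shift common to the sites, both 48 h ranks were above at 953 sites (28.4%) and below at 1048 (31.2%). The median log2 ratio of scores, 48 h to 2 h, was 0.53. Across these sites the scores of the replicates had a Spearman correlation of 0.733 at 2 h and 0.885 at 48 h, and libraries of different times had 0.560 to 0.626. These correlations describe 3358 sites that share libraries and are given without a test.

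The shift toward 48 h was larger at sites with JunD. Of 2149 such sites with a JunD site, 1326 (61.7%) had both 48 h scores above both 2 h scores, against 575 of 1209 (47.6%) without JunD and 56.6% of all. Both 48 h scores lay below in 166 (7.72%) and 155 (12.8%). The median log2 ratio was 0.66 with JunD and 0.30 without. Ranked among the 3358 sites alone, the shares above were 33.3% with JunD and 19.6% without, and the shares below were 27.6% and 37.6%. The difference was not particular to JunD. Both 48 h scores were above at 57.5% of 3173 sites with RNAP2 in DMSO-treated cells and at 41.6% of 185 sites without it, and by rank among these sites at 29.2% and 13.5%. For H3K27ac in DMSO-treated cells the shares by score were 58.3% with and 52.3% without.

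**Figure D3:**
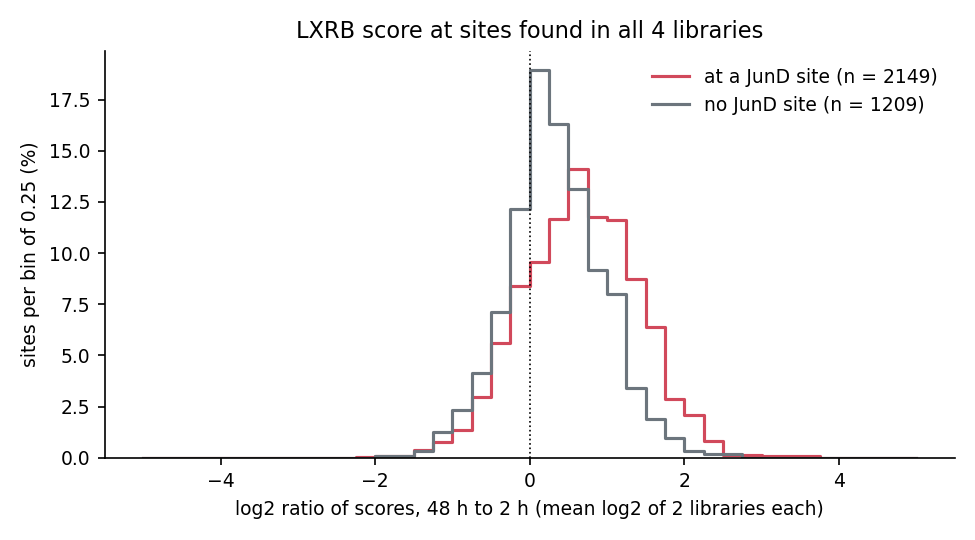
Distribution of the log2 ratio of LXRB scores, 48 h to 2 h (x axis, mean log2 score of 2 libraries at each time), over the sites held by all 4 libraries, as a percentage of sites per bin of 0.25 (y axis). Sites at a JunD site (n = 2149) lie further to the right than sites without one (n = 1209), with medians of 0.66 and 0.30.

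LXRB peaks were spread over 23 chromosomes, 1 to 22 and X, in each library. The share of peaks on a chromosome did not overlap between times for 11 of 23 chromosomes (47.8%), 6 with a larger and 5 with a smaller share at 48 h. Without any difference between times, 2 against 2 libraries would separate in this way with a probability of 0.333. The shares of a library also depend on each other, so the 11 are not separate results. Chromosome 17 held 4.14% and 3.67% of the peaks at 2 h and 4.65% and 5.13% at 48 h. For chromosome 22 the shares were 1.07% and 0.878% at 2 h and 1.32% and 1.35% at 48 h. Chromosomes 16 and 19 also had larger shares, and chromosomes 3, 4, 7 and 12 smaller ones, with an exact permutation p of 0.333 for each named chromosome. All of these shifts were below 1 percentage point. There were more 48 h than 2 h sites on each chromosome, from 1.99 times as many on X to 3.50 times on 22, and late sites made up between 58.0% (X) and 73.9% (22) of the 48 h sites.

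Late sites lay near each other more often than near persistent sites. The median gap from a late site to the nearest other late site was 55.1 kb, and to the nearest persistent site 115 kb. Within 10 kb there was a persistent site for 810 late sites (13.9%, interval 13.0 to 14.8), and another persistent site for 667 persistent sites (19.7%, interval 18.4 to 21.0). Late sites were the larger set, and distances shorten with the number of sites.

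Overlap with JunD related LXRB binding to AP1 occupancy in cells without agonist. Of the deposited LXRB peaks, 48.2% and 59.5% overlapped one of 8960 JunD sites in the 2 h libraries, and 47.2% and 38.7% did in the 48 h libraries. The mean was 10.9 percentage points lower at 48 h (exact permutation p = 0.333), with 47.2% in the higher 48 h library next to 48.2% in the lower 2 h library. Among LXRB sites, 60.9% at 2 h (interval 59.4 to 62.4) and 50.9% at 48 h (interval 49.9 to 51.9) overlapped JunD. By class, JunD lay at 2175 persistent sites (64.1%), 2516 late sites (43.2%) and 203 early sites (40.0%).

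This order depended on which peaks were counted. Among peaks with a score of at least 200, JunD shares were 59.3% and 59.4% at 2 h and 63.3% and 55.5% at 48 h, a difference of 0.0448 percentage points. With the 4555 highest-scoring peaks of each library they were 55.2% and 59.5% at 2 h and 63.2% and 59.5% at 48 h, 3.996 points higher at 48 h. When sites and classes were built from peaks with a score of at least 200, late sites held JunD more often than persistent sites did, by 7.90 percentage points. Without replicate 1 of 48 h, where classes rest on the library with the most peaks, the difference between late and persistent sites was -32.2 points, against -21.0 with all libraries.

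The gap in JunD between late and persistent sites varied with the score. With a lower 48 h score of 100 to 150, 34.0% of late sites (interval 32.4 to 35.7) and 52.2% of persistent sites (interval 47.5 to 56.8) overlapped JunD. Between 300 and 600, the shares were 73.2% (interval 68.6 to 77.3) and 76.1% (interval 73.4 to 78.5). At scores of 600 and above JunD lay at 52.6% of 692 persistent sites and at 15 of 17 late sites.

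The strongest sites held by all 4 libraries formed a set apart. Of the 255 sites whose lowest score was at least 1000, 18.4% overlapped JunD (interval 14.2 to 23.6), whereas 62.6% to 74.8% did in each lower range of scores. FLAG-tagged LXRA of 2 h lay at 31.8% of these 255 sites and PPARG of 2 h at 14.1%, against 75.2% to 89.4% and 65.9% to 80.7% in the lower ranges. In contrast, 94.9% held H3K27ac and 96.1% held RNAP2 in DMSO-treated cells, and the H3K27ac share in the lower ranges was 66.6% to 80.4%. The median log2 ratio of scores was 0.10 at these sites and 0.41 to 0.66 in the lower ranges, with the scale limiting the highest scores.

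**Figure D4:**
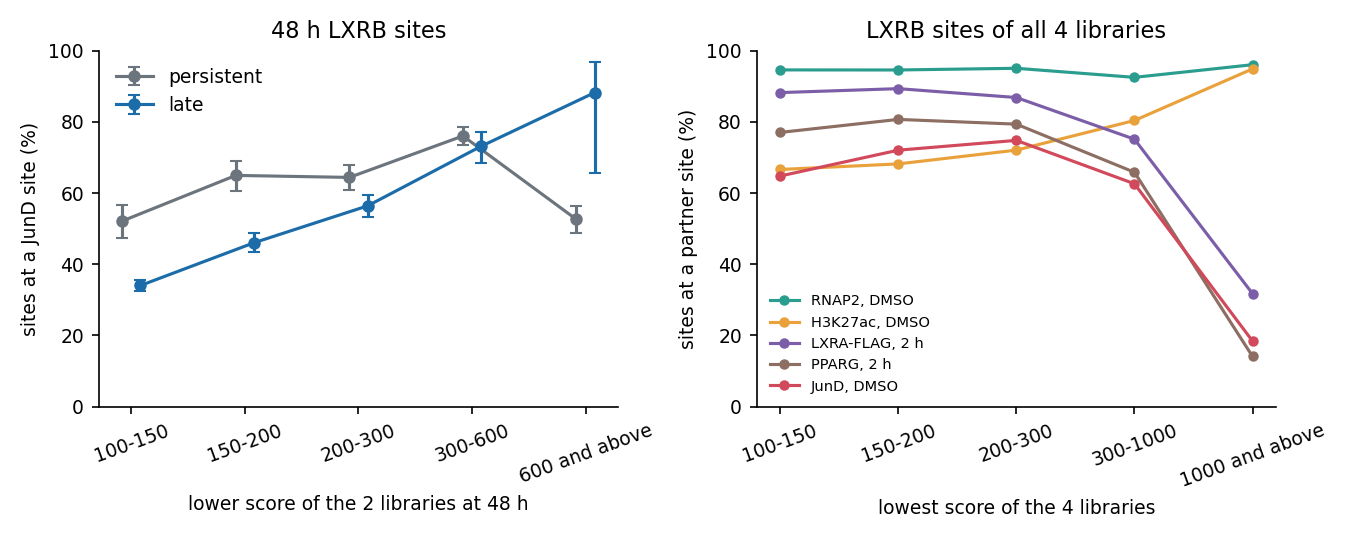
Left, percentage of persistent and of late 48 h sites at a JunD site (y axis) by the lower score at 48 h (x axis), with Wilson 95% intervals. Right, percentage of LXRB sites of all 4 libraries at sites of 5 partners (y axis) by the lowest of the 4 scores (x axis); JunD, LXRA-FLAG and PPARG shares fall to 18.4%, 31.8% and 14.1% at scores of 1000 and above, while RNAP2 and H3K27ac are at 96.1% and 94.9%.

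Within a library, the JunD share went down with the score at 48 h. With peaks ranked by score and split into 5 equal groups, it ran from highest to lowest from 67.7% to 27.8% in replicate 1 and from 64.5% to 19.8% in replicate 2. At 2 h it ran from 59.6% to 33.7% in replicate 1. Replicate 2 of 2 h departed from this order, with 48.5% in the highest group, 71.9% in the next and 51.9% in the lowest.

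Seen from the JunD side, more AP1 sites carried LXRB at 48 h. Of the 8960 JunD sites, 2325 (25.9%, interval 25.1 to 26.9) overlapped an LXRB site of 2 h and 4514 (50.4%, interval 49.3 to 51.4) one of 48 h. A late LXRB site lay at 2462 of all 8960 JunD sites (27.5%). Of the 1792 JunD sites with the highest JunD scores, 54.1% held LXRB at 2 h and 76.6% at 48 h, and of the 1792 with the lowest scores, 11.4% and 31.0% did. These shares grow with the number of LXRB sites, which was 2.38 times larger at 48 h.

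RNAP2 and H3K27ac were present at most LXRB peaks of either time. RNAP2 sites of 48 h GW3965 overlapped 80.1% and 83.5% of the peaks at 2 h and 72.9% and 74.5% at 48 h, and H3K27ac sites of 48 h GW3965 overlapped 73.5% and 73.2% at 2 h and 66.0% and 67.8% at 48 h. Both 48 h libraries were below both 2 h libraries, with mean differences of -8.06 and -6.45 percentage points and an exact permutation p of 0.333 for each mark. With the 4555 highest-scoring peaks of each library the differences turned to 4.84 and 0.274 points in the other direction. By class, the RNAP2 share was 91.0% at persistent, 72.4% at late and 64.6% at early sites, and the H3K27ac share was 78.4%, 64.8% and 64.6%.

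Most late sites already carried a mark in cells that had received no agonist. RNAP2 of DMSO-treated cells lay at 5164 late sites (88.6%) and H3K27ac at 3473 (59.6%). JunD, RNAP2 and H3K27ac were all found at 24.1% of late sites and 45.9% of persistent sites, and none of the 3 at 7.89% and 3.75%. RNAP2 and H3K27ac without JunD was the combination at 33.5% of late and 24.5% of persistent sites.

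RNAP2 peaks were less frequent at late LXRB sites in GW3965-treated than in DMSO-treated cells. Single DMSO libraries had an RNAP2 peak at 91.6% and 91.0% of the late sites. With GW3965 the shares were 77.8% and 79.2% at 24 h and 79.1% and 75.9% at 48 h. The differences of -12.8 and -13.8 percentage points each had an exact permutation p of 0.333, and the GW3965 libraries of each time lay below both DMSO libraries. At persistent sites the DMSO libraries had 95.05% and 95.7% and the 48 h GW3965 libraries 93.0% and 92.6%, a difference of -2.55 points. Early sites had 87.8% and 87.6% with DMSO and 69.7% and 72.0% after 48 h of GW3965, a difference of -16.8 points. The gap between persistent and late sites was 3.42 and 4.64 points with DMSO and 13.9 and 16.7 points after 48 h of GW3965 (exact permutation p = 0.333).

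With rosiglitazone, late sites had RNAP2 peaks at 92.5% and 85.3% in the 24 h libraries and at 85.7% and 88.8% in the 48 h libraries. Early sites had 59.1% and 84.8% after 48 h of rosiglitazone, a difference of -15.7 points from DMSO (exact permutation p = 0.333). The gap between persistent and late sites at 48 h of rosiglitazone was 5.59 and 4.52 points. The DMSO libraries are shared by the comparisons of both drugs.

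A lower share of RNAP2 peaks after GW3965 was also found over all JunD sites, with or without LXRB. At all 8960 JunD sites, RNAP2 peaks lay at 88.7% and 87.7% with DMSO, and at 70.0% and 67.5% after 48 h of GW3965. Of all 26581 RNAP2 sites of DMSO-treated cells, 29.3% had no RNAP2 site after 48 h of GW3965 and 29.8% had none after 48 h of rosiglitazone. Of the 5164 late LXRB sites with an RNAP2 site of DMSO-treated cells, 20.8% (interval 19.7 to 21.9) had none after 48 h of GW3965. After 48 h of rosiglitazone, 11.7% (interval 10.9 to 12.6) had none. For the 3205 persistent LXRB sites with an RNAP2 site of DMSO-treated cells these shares were 5.65% and 6.49%. The last 2 sets count LXRB sites and the first counts whole RNAP2 sites, so the measures differ. The part of RNAP2 depth in these shares was not tested, as the files hold no depth. RNAP2 peaks numbered 30638 and 35010 with DMSO and 32831 and 28897 after 48 h of GW3965, with 48.8 and 48.7 Mb covered against 40.1 and 36.9 Mb.

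H3K27ac did not follow RNAP2 at the late sites. H3K27ac peaks lay at 60.2% and 70.1% of late sites in the DMSO libraries and at 73.0% and 68.1% after 48 h of GW3965, and these ranges overlap (exact permutation p = 0.667). At persistent sites the shares were 73.5% and 79.3% with DMSO and 82.7% and 83.6% after 48 h of GW3965. These do not overlap, with a difference of 6.77 points (exact permutation p = 0.333). After 24 h of GW3965 they were 80.4% and 77.0%, which overlap those with DMSO. The rise was not particular to persistent LXRB sites or to GW3965. Over all JunD sites, with or without LXRB, H3K27ac peaks lay at 47.6% and 53.8% with DMSO. They lay at 55.7% and 59.0% after 48 h of GW3965. H3K27ac peaks covered 49.4 and 67.9 Mb with DMSO and 73.1 and 65.0 Mb after 48 h of GW3965. The part of H3K27ac depth in these shares was not tested. After 48 h of rosiglitazone, persistent sites had 86.3% and 83.6% and late sites 76.2% and 72.8%. The differences from DMSO were 8.57 and 9.31 points (exact permutation p = 0.333 for each). The gap between persistent and late sites was 13.3 and 9.18 points with DMSO and 9.77 and 15.4 points after 48 h of GW3965, which overlap as well (exact permutation p = 0.667).

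**Figure D5:**
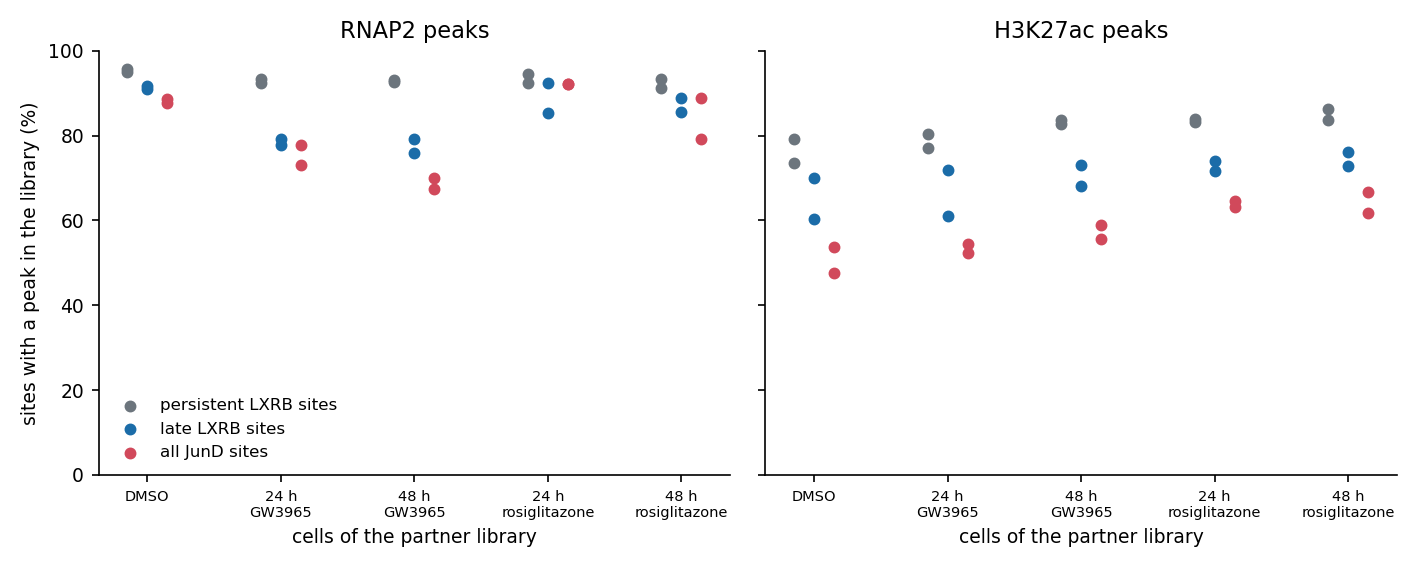
Percentage of persistent LXRB sites, late LXRB sites and all JunD sites with an RNAP2 peak (left) or an H3K27ac peak (right) in each library (y axis), by the treatment of the cells of that library (x axis). Each point is 1 of 2 libraries; late sites have RNAP2 peaks at 91.0% and 91.6% with DMSO and at 75.9% to 79.2% in the 4 GW3965 libraries, and JunD sites are lower with GW3965 too.

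FLAG-tagged LXRA shared most LXRB sites. LXRA sites of 48 h overlapped 84.5% of persistent, 78.6% of late and 68.9% of early LXRB sites, and LXRA sites of 2 h overlapped 81.8%, 65.2% and 79.1%. An LXRA site was found at 48 h but not at 2 h for 18.2% of late sites (interval 17.2 to 19.2) and 5.01% of persistent sites (interval 4.33 to 5.80). The reverse, LXRA at 2 h alone, was found for 15.2% of early sites (interval 12.3 to 18.5) and 4.86% of late sites (interval 4.33 to 5.44). PPARG of 2 h rosiglitazone lay at 71.6% of persistent, 52.4% of late and 47.4% of early sites.

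The other receptors did not have more peaks at 48 h in both replicates. LXRA had 30953 and 19357 peaks at 2 h and 18436 and 29263 at 48 h, which overlap (exact permutation p = 0.667). PPARG had 24039 and 15804 at 2 h and 15378 and 8933 at 48 h, a mean difference of -7766 (exact permutation p = 0.333). Of their 2 h sites, 64.1% for LXRA and 55.6% for PPARG were found again at 48 h, compared with 86.9% for LXRB. Of their 48 h sites, 32.8% and 6.77% had no 2 h site, compared with 63.2% for LXRB. Both kinds of share depend on the lengths of the lists. The number of 48 h sites was 2.38 times that of 2 h sites for LXRB, 0.942 times for LXRA and 0.584 times for PPARG. With equal numbers of top peaks per library, LXRB had 3180 sites at 2 h, of which 1076 were early. PPARG peaks overlapped JunD in 26.4% and 32.3% of cases after 2 h against 36.1% and 37.4% after 48 h (exact permutation p = 0.333), and LXRA peaks in 22.7% and 29.5% against 33.3% and 25.6% (exact permutation p = 0.667).

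RNA of LXRB itself changed little over the same treatment. NR1H2 was at 47.5, 47.3, 43.2 and 49.3 CPM with DMSO and 47.1, 46.8, 54.1 and 53.1 CPM with GW3965 at 24 h, a log2 change of 0.10 ± 0.06 (SE, edgeR quasi-likelihood test, adjusted p = 0.433). At 48 h it was 63.6, 60.6, 62.7 and 66.9 CPM with DMSO and 54.0, 51.7, 55.0 and 52.0 CPM with GW3965. The groups did not overlap, and NR1H2 was lower with GW3965 by 0.25 on the log2 scale (SE 0.06, adjusted p = 0.000991 in edgeR's test). NR1H3, which encodes LXRA, rose by 1.10 ± 0.08 (adjusted p = 1.55e-08) after 24 h and by 1.65 ± 0.06 (adjusted p = 2.24e-13) after 48 h. RXRA, a partner of both receptors, was higher with GW3965 than with DMSO by 0.43 ± 0.08 at 48 h (adjusted p = 0.000133 in edgeR's test). RXRB did not pass the threshold of 0.01 at either time, and RXRG had a count of 0 in each of these libraries.

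RNA of AP1 was lower after 48 h of GW3965 than with DMSO. JUND was at 256, 242, 268 and 284 CPM with DMSO and 174, 152, 159 and 162 CPM with GW3965. It was lower with GW3965 by 0.70 on the log2 scale (SE 0.10, adjusted p = 1.23e-05 in edgeR's test). The mean of JUND with DMSO was 108 CPM at 24 h and 263 CPM at 48 h, and with GW3965 125 and 162 CPM. All 7 AP1 genes tested, JUND, JUN, JUNB, FOS, FOSL1, FOSL2 and FOSB, passed the test as lower at 48 h, with a median log2 change of -1.39, where 17.5% of the 22470 genes tested were called lower and 16.1% higher. FOSL1 was lower by 2.40 (SE 0.09). Its means at 24 h and 48 h were 24.5 and 71.6 CPM with DMSO and 26.2 and 13.6 CPM with GW3965. All 7 had a higher mean with DMSO at 48 h than at 24 h. With GW3965 only FOSL1 had a lower mean at 48 h than at 24 h. The change between times was not tested. At 24 h, where 1.86% of 21781 genes were called higher and 0.868% lower, 0 of the 7 passed edgeR's test at an adjusted p under 0.01. JUN, FOS and FOSL2 had an unadjusted p under 0.05, each at a higher mean with GW3965, and FOS passed with DESeq2, at a log2 change of 0.35. Without replicate 1 of GW3965 at 24 h, in which JUND was at 84.8 CPM against 134 to 140 CPM in the other 3, JUND, JUN, FOS and FOSL2 passed as higher. JunD binding was assayed in DMSO-treated cells alone, so its occupancy after GW3965 was not measured here.

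Most known LXR target genes that were tested rose in these cells. Of 22 such genes, 19 were tested, 12 passed as higher and 0 as lower after 24 h, while after 48 h 15 passed as higher and 2 as lower, with median log2 changes of 1.13 and 1.65 beside medians of -0.00634 and 6.02e-05 over all genes. Over all genes tested, 1.86% were called higher and 0.868% lower at 24 h, and 16.1% and 17.5% at 48 h. The 22 genes include NR1H3, whose values are given above. ABCA1, the cholesterol exporter, rose by 4.61 ± 0.09 at 24 h and 5.77 ± 0.13 at 48 h. SREBF1, the regulator of fatty acid synthesis, rose by 1.99 ± 0.13 and 2.16 ± 0.10, and SCD, a fatty acid desaturase, by 2.01 ± 0.05 and 2.57 ± 0.06. APOC1 passed as lower at 48 h but was below 1 CPM in each library, and without replicate 1 of DMSO its adjusted p was 0.0595 in edgeR's test. COL1A1, a transcript of other cell types, was at a mean of 5.62 CPM with DMSO and 8.13 CPM with GW3965 at 48 h and also passed as higher, and its part in these RNA results was not tested.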

How the data were processed

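ChIP-seq peaks of LXRB, LXRA-FLAG, PPARG, JunD, RNAP2 and H3K27ac in HT29 cells were used as deposited, with 2 replicates per group. The authors ran MACS on single replicates, each with an input, and the deposited score of a peak was read as minus 10 times the log10 of its p, as MACS writes it. The lowest deposited score was 100. Bowtie, MACS, TopHat, Cufflinks and the hg19 build are named in the submitters' processing notes without versions or roles. For RNA, the authors deposited whole-number counts per gene.

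Where peaks of the 2 replicates shared 1 bp or more, they were merged into a site in Python 3.11.15 with pandas 2.3.3, and LXRB sites were classed by overlap between times. Libraries were compared by two-sided exact permutation tests. Shares carry Wilson 95% intervals, and site positions are 1-based. RNA counts of all 16 libraries of a time (21.0 to 51.3 M counts each at 24 h, 32.3 to 50.9 M at 48 h) were fitted with edgeR 4.0.16 (filterByExpr, TMM, quasi-likelihood test, Benjamini-Hochberg, adjusted p under 0.01), and CPM use the TMM factors. DESeq2 1.42.0 was an alternative. The code was tested on simulated data. Nothing in the labels says whether replicates were separate cultures, so p-values measure the spread between these samples.

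The members, gene lists and tests were chosen with earlier results of these data known. Named sites were the 4 of each class, and the 3 late sites with and without JunD, with the highest lower score, leaving out chromosome 8, with ties at 3100 broken by position after the values were seen. Named genes were those of the assayed proteins, their partners and known LXR targets. The values of 1 LXR target are not reported here, though the counts over the list include it. Alternatives were a score of at least 200, equal numbers of top peaks, stricter overlap, partner peaks of either replicate, a replicate block and leaving out each replicate, and for RNA other scaling, filters and samples. Score ranges, distances, comparisons by single RNAP2 and H3K27ac libraries and class overlaps without each LXRB replicate and ranks among the sites of all 4 libraries were added after seeing the data. Motifs at sites and distances to gene starts were not analysed here, since no hg19 sequence or annotation was used.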

Additional observations from a re-analysis of the deposited data

Results flagged for a closer look

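Over the deposited peaks, LXRB and PPARG moved in opposite directions between 2 h and 48 h in every library. The mean number of LXRB peaks was higher by 6875 at 48 h, while that of PPARG peaks differed by -7766. The share of peaks at a JunD site differed by -10.9 percentage points for LXRB and by 7.37 points for PPARG. Among peaks with a score of at least 200, these differences were 0.0448 points for LXRB and 6.62 points for PPARG. With equal numbers of top peaks the LXRB difference was 3.996 points. The difference between the receptors was not tested, and they were assayed under different drugs.

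Among 44 groups of 4 RNA libraries of the receptor and AP1 genes, 4 had 1 library far from the other 3, and chance gives about 1 in 20. JUND was at 84.8 CPM in 1 GW3965 library at 24 h, with 134 to 140 CPM in the others. RXRB was at 43.4 CPM in 1 DMSO library at 24 h, with 44.4 to 44.6 CPM in the others. FOSL2 was at 103 CPM in 1 GW3965 library at 48 h, with 89.0 to 90.9 CPM in the others. FOSB was at 13.9 CPM in 1 DMSO library at 48 h, with 12.5 to 12.7 CPM in the others.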

How the results depend on the processing

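LXRB peaks were more numerous at 48 h under each alternative tried. Other values turned with the equal number of top peaks per library: the difference in width became 85.5 bp, and the differences in overlap became 3.996 percentage points for JunD, 4.84 for RNAP2 and 0.274 for H3K27ac. With a score of at least 200 the JunD difference was 0.0448 points, and late minus persistent sites had a JunD difference of 7.90, RNAP2 of -4.68 and H3K27ac of -8.94 points. With partner peaks of either replicate these were -14.9, -12.2 and -11.7 points. Without each LXRB replicate in turn, an alternative chosen after seeing the data, they ran from -32.2 to -19.0, -25.0 to -16.7 and -18.2 to -11.1 points. The cause was not tested.

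Site numbers moved with the same choices. At a score of at least 200 there were 1458 sites at 2 h and 3849 at 48 h, with 1307 persistent, 2542 late and 160 early. With equal numbers of top peaks there were 3471 at 48 h, with 2109 persistent, 1362 late and 1076 early. Counting a peak in either replicate of the other time gave 5374 persistent, 3844 late and 226 early. Without each replicate in turn, sites ranged from 4555 to 7583 at 2 h and 11100 to 14788 at 48 h, late sites from 4203 to 11159 and early sites from 315 to 2521; the most late sites came without replicate 1 of 48 h and the most early sites without replicate 2 of 2 h. By percentile among all peaks of a library, which longer lists raise, 54.7% of sites of all 4 libraries were above and 8.28% below at 48 h; by rank among these sites alone, chosen after seeing the data, 28.4% were above and 31.2% below.

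With the replicate number as a block, the difference in peak number was 6875 (exact sign permutation p = 0.5, the smallest that 2 pairs allow), and no call changed. Same-numbered LXRB libraries had deviations correlated at -0.0373, and RNA libraries at -0.103 to 0.0652, so the numbers were not taken to pair samples.

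Of 12 receptor and AP1 genes, 1 was called at 24 h, against 2 with DESeq2, 2 with no filter on low counts, and 1 to 5 without each replicate in turn, the 5 without replicate 1 of GW3965. Log2 changes at 24 h turned for FOSB, at -0.00535 with the replicate block and from -0.124 to 0.152 without each replicate, for RXRA, from -0.0351 (without GW3965 replicate 3) to 0.201, and for TMEM97, from -0.0244 (without GW3965 replicate 1) to 0.0714. Motifs and distances to LXR target genes were not run. Unknown read depth limits each peak count, and 2 libraries per time limit each test.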
